A study of Homo sapiens with 6 samples.

Results

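The data described here are the small RNA sequencing counts of 6 mature miRNAs, both arms of the hairpins miR-4728, miR-3679 and miR-3177, among 2588 miRNAs listed. These hairpins lie in introns of ERBB2, MGAT5 and MAPK8IP3. They were selected on the measured enrichment of m7G-RIP over input: 1 arm of each, miR-4728-5p, miR-3679-5p or miR-3177-3p, was among the most enriched miRNAs after immunoprecipitation with an antibody against 7-methylguanosine (m7G). These enrichment values are therefore given as a description, with no test. The libraries come from Caco-2, an established human cell line derived from a colorectal adenocarcinoma, grown in Eagle's Minimum Essential Medium with serum, with no other treatment named. By the study's protocol total RNA was decapped, heat-denatured and immunoprecipitated with the anti-m7G antibody, which gave 3 m7G-RIP samples. The 3 input samples hold RNA set aside before this step, which was not immunoprecipitated. All 6 samples come from this 1 cell line, no library from a control antibody was analysed here, and the labels do not say whether replicates were separate cultures, so the spread between them may be technical.

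A miRNA hairpin is cut from its primary transcript by DROSHA and then by DICER, which leaves a duplex of a 5p and a 3p strand, called arms. As a rule 1 arm is loaded into the silencing complex and the other is degraded, so that the arms of a hairpin are present at unequal levels. Hairpins in introns share the transcript of their host gene, and some, called mirtrons, have an end that is set by splicing instead of by DROSHA. N7-methylguanosine is the base of the mRNA cap and is also found at internal positions of tRNA and rRNA, and METTL1 is known as the methyltransferase that places it in tRNA. An antibody against m7G was used in this study to ask which miRNAs carry the modification. The study also used a chemical method in another cell line, and regarded miRNAs found there by both methods as high-confidence. In the antibody design both arms of a hairpin come from the same precursor and are measured in the same library. Each arm can therefore be compared with its partner.

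The mature sequences are shown because the arms of a hairpin differ in their guanosines, the base whose methylated form the antibody binds. They are the RefSeq sequences on GRCh38.p14, written 5′ to 3′ with the seed (bases 2 to 8) in capitals.
hsa-miR-4728-5p: uGGGAGGGgagaggcagcaagca
hsa-miR-4728-3p: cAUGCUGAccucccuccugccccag
hsa-miR-3679-5p: uGAGGAUAuggcagggaagggga
hsa-miR-3679-3p: cUUCCCCCcaguaaucuucauc
hsa-miR-3177-3p: uGCACGGCacuggggacacgu
hsa-miR-3177-5p: uGUGUACAcacgugccaggcgcu

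All 6 members were found in the sequence table. miR-4728-5p had 12 G among 23 bases (52.2%), against 4 of 25 (16%) in miR-4728-3p. miR-3679-5p also had 12 G among 23 bases (52.2%), against 1 of 22 (4.55%) in miR-3679-3p. The arms of miR-3177 were closer in composition, with 8 G among 21 bases (38.1%) in miR-3177-3p and 7 of 23 (30.4%) in miR-3177-5p. Each of the 3 arms named for their enrichment held a run of 4 G, and the longest run of G in their partners was 1 base in miR-4728-3p and miR-3679-3p and 2 bases in miR-3177-5p. Each of the 6 sequences occurred exactly 1 time in the 25 chromosomes of GRCh38 searched on both strands, and 0 further sites differed from them by 1 base.

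The hairpin MIR4728 (ENSG00000265178.1) lies on the plus strand at chr17:39726495-39726561, in intron 23 of ERBB2, the gene of the receptor tyrosine kinase HER2. miR-4728-5p occupies 39726496 to 39726518 and miR-4728-3p 39726537 to 39726561. The intron is 708 bases long in transcript ENST00000269571.10, with 641 bases before the hairpin and 0 bases between its last base and exon 24. The hairpin ends in CCCCAG, so the 3' end of miR-4728-3p is also the end of the intron, and all 7 annotated ERBB2 transcripts that span the hairpin have an exon directly after it. MIR3679 (ENSG00000263813.1), at chr2:134127125-134127192 on the plus strand, lies in intron 1 of MGAT5, which encodes an N-acetylglucosaminyltransferase that branches N-glycans. That intron is 133970 bases long in transcript ENST00000409645.5 and leaves 6833 bases before and 127069 bases after the hairpin. Only 3 of the 5 MGAT5 transcripts listed span this hairpin, and the MANE Select transcript is not among them. MIR3177 (ENSG00000265820.1), at chr16:1734985-1735066 on the plus strand, lies in intron 4 of MAPK8IP3, which encodes a scaffold protein of the JNK kinase cascade. The intron is 13753 bases long, with 5406 bases before and 8265 bases after the hairpin. No exon of another gene overlapped any of the 3 hairpins in GENCODE release 44 (0 exons for each).

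**Figure D1:**
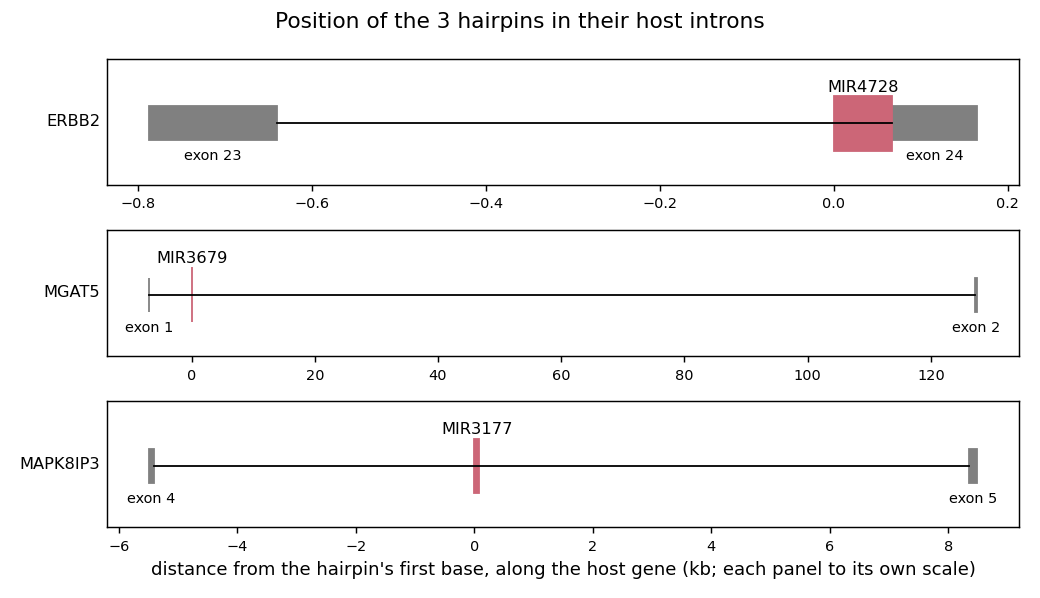
Position of the 3 hairpins (red) between the flanking exons (grey) of their host genes, as distance in kb from the first base of the hairpin, each panel to its own scale. MIR4728 touches exon 24 of ERBB2 (0 bases between them), whereas MIR3679 and MIR3177 lie 127069 and 8265 bases before the next exon.

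Total miRNA counts ranged from 16466178 to 19628046 for input libraries and from 1654102 to 3105129 for m7G-RIP libraries. Levels are given as CPM, the count relative to a library size corrected by TMM factors (counts per 1e6), and at these depths 3 counts correspond to 0.235 to 0.262 CPM (input) or 0.676 to 1.11 CPM (m7G-RIP). Of the 6 intestinal epithelial miRNAs used to check the label, all were detected in the input, from 260 CPM for miR-141-3p to 54882 CPM for miR-192-5p. Of 10 markers of other cell types, miR-223-3p and miR-122-5p had 0 counts in the input and the highest was miR-1-3p with 644 CPM. Of the 6 arms of the 3 hairpins, 4 passed the filter on low counts and were fitted with the 800 miRNAs tested, while miR-3679-3p and miR-3177-5p did not pass.

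In the input the arms of the 3 hairpins were of low abundance. miR-4728-5p had 42, 33 and 40 counts in input replicates 1, 2 and 3, and 221, 338 and 301 counts in m7G-RIP replicates 1, 2 and 3. This corresponds to 3.22 ± 0.550 CPM (SD, n = 3) in the input and 80.2 ± 28.8 CPM (SD, n = 3) in m7G-RIP. The groups did not overlap, and the lowest m7G-RIP library, at 53.6 CPM, was 15-fold above the highest input library, at 3.58 CPM. The log2 enrichment from edgeR's fit over all miRNAs was 4.63 (standard error 0.31), or 24.8-fold.

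Its partner, miR-4728-3p, was the more abundant arm in the input, with 164, 166 and 170 counts. In m7G-RIP it had 150, 207 and 134 counts. As CPM it rose from 13.9 ± 0.916 (SD, n = 3) to 44.1 ± 6.82 (SD, n = 3), and the groups again did not overlap. Its log2 enrichment was 1.66 (standard error 0.23), or 3.16-fold. The G-poor arm was thus also higher in m7G-RIP under each scaling tried, by a smaller factor than miR-4728-5p.

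miR-3679-5p had 43, 56 and 51 counts in the input and 167, 277 and 288 counts in m7G-RIP. Its level was 4.17 ± 0.436 CPM (SD, n = 3) in the input and 69.7 ± 33.4 CPM (SD, n = 3) in m7G-RIP. The m7G-RIP libraries were spread from 40.5 to 106 CPM, the widest relative spread of the 4 fitted arms, and all 3 lay above the highest input library, at 4.45 CPM. The log2 enrichment was 4.05 (standard error 0.34), or 16.5-fold. miR-3679-3p was close to the limit of detection, with 1, 2 and 2 counts in the input and 4, 0 and 0 in m7G-RIP. From the summed counts, 5 in the input and 4 in m7G-RIP, the ratio of m7G-RIP to input was 2.55, with a 95% counting interval of 0.506 to 11.9, so neither a rise nor a fall of this arm was detectable with this scaling. With total counts as the library size the ratio was 5.38 (1.07 to 25), so the call depends on the scaling, and without m7G-RIP replicate 2 the TMM-scaled ratio was 4.21.

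miR-3177-3p was the most abundant of the 3 high arms, with 104, 95 and 103 counts in the input and 399, 524 and 422 counts in m7G-RIP. Its level was 8.43 ± 0.859 CPM (SD, n = 3) in the input and 123 ± 29.7 CPM (SD, n = 3) in m7G-RIP, and the lowest m7G-RIP library was 10.8-fold above the highest input library. The log2 enrichment was 3.87 (standard error 0.23), or 14.6-fold. miR-3177-5p had 6, 6 and 5 counts in the input and 0, 0 and 3 counts in m7G-RIP. Its ratio of m7G-RIP to input from the summed counts, 17 and 3, was 0.563 with a 95% counting interval of 0.106 to 1.95, and no change was detectable. Its direction depends on the scaling, since with total counts the ratio was 1.19 (0.223 to 4.10), and without m7G-RIP replicate 1 or 2 the TMM-scaled ratio was 0.887 or 0.928. Intervals from counts cover counting error only, since reads without molecular identifiers are not independent molecules.

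**Figure D2:**
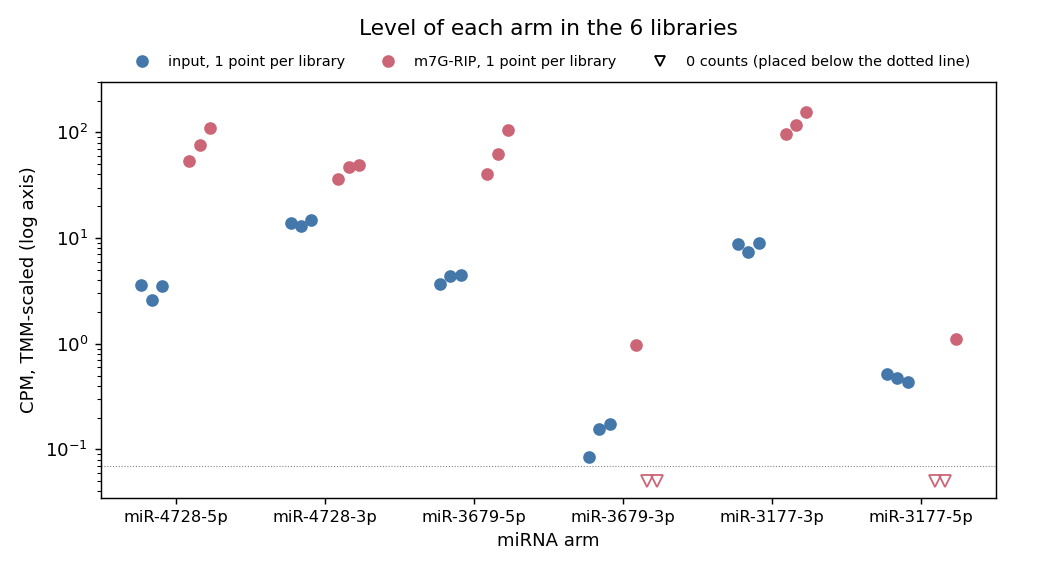
CPM (TMM-scaled, log axis) of the 6 arms in the 3 input (blue) and 3 m7G-RIP libraries (red), with libraries of 0 counts as open triangles below the dotted line. The 4 fitted arms are higher in every m7G-RIP library than in any input library, whereas miR-3679-3p and miR-3177-5p each have 0 counts in 2 m7G-RIP libraries.

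All 4 fitted arms were called enriched at an adjusted p-value under 0.05 by edgeR's quasi-likelihood test. Of all 800 miRNAs tested 40.1% were, and 78.2% were called in either direction, and since this contrast chose the hairpins nothing is read from their count. By log2 enrichment miR-4728-5p was at rank 15 of 800, miR-3679-5p at rank 40, miR-3177-3p at rank 47 and miR-4728-3p at rank 237. The 14 miRNAs ranked above miR-4728-5p had at most 11 counts in any input library, and their standard errors ranged from 0.44 to 1.06, all above that of miR-4728-5p. The choice of hairpins had no stated limit. Just above and just below miR-4728-5p stood miR-1229-5p at 4.67 (standard error 0.64) and miR-1236-5p at 4.62 (standard error 0.70). The neighbours of miR-3679-5p were miR-3682-3p at 4.09 (standard error 0.77) and miR-1268b at 3.97 (standard error 0.44). Those of miR-3177-3p were miR-1249-5p at 3.89 (standard error 0.51) and miR-7106-3p at 3.85 (standard error 0.91). Each of these neighbours differed from its arm by less than the standard errors, so the order among them is not resolved. Among the 3 high arms, the order of miR-3679-5p and miR-3177-3p was likewise within their standard errors. Between the groups the rank by abundance among the tested miRNAs also moved, from 492 in the input to 156 in m7G-RIP for miR-4728-5p, from 461 to 169 for miR-3679-5p and from 368 to 135 for miR-3177-3p.

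The ratio of the arms of a hairpin within a library does not depend on how libraries are scaled, and it was used to compare each high arm with its partner. In miR-4728 the majority arm differed between input and m7G-RIP. miR-4728-5p took 20.4%, 16.6% and 19.0% of the hairpin's counts in input replicates 1, 2 and 3, each from 199 to 210 counts. In m7G-RIP it took 59.6%, 62.0% and 69.2%, from 371 to 545 counts. Over the summed counts the share was 18.7% (95% Clopper-Pearson interval 15.7% to 22%) for input libraries and 63.7% (61.0% to 66.2%) for m7G-RIP libraries. On the log2 scale the ratio of miR-4728-5p to miR-4728-3p was -2.11 ± 0.18 (SD, n = 3) in the input and 0.81 ± 0.32 (SD, n = 3) in m7G-RIP. The difference of 2.92 (standard error 0.21), a 7.58-fold change of the ratio, was larger than the spread within either group, and over the same-numbered pairs it lay between 2.51 and 3.24.

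In the other hairpins the high arm was already the majority arm in the input. miR-3177-3p took 94.5%, 94.1% and 95.4% of the counts of its hairpin in the input. In m7G-RIP replicates 1 and 2 it took all 399 and 524 counts, and in replicate 3 it took 99.3%. Taking 3 counts as the upper limit behind a count of 0, miR-3177-5p is allowed a share of up to 0.752% and 0.573% in replicates 1 and 2. From the summed counts the ratio of miR-3177-3p to miR-3177-5p was 17.8 in the input and 448 in m7G-RIP, an odds ratio of 25.2 with a 95% counting interval of 7.21 to 135, and of 15.4 without m7G-RIP replicate 2. The mean difference of the log2 ratio, with 0.5 counts added to each arm, was 4.82 (standard error 0.99), and the 3 m7G-RIP libraries lay above the 3 input libraries.

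miR-3679-5p took 97.7%, 96.6% and 96.2% of its hairpin's counts in the input, from 44 to 58 counts per library. In m7G-RIP replicate 1 its share was 97.7%, equal to that of input replicate 1 within counting error. In m7G-RIP replicates 2 and 3 it took all 277 and 288 counts. With the same limit of 3 counts, miR-3679-3p is allowed a share of up to 1.08% and 1.04%. The ratio of the arms in the summed counts was 30.0 in the input and 183 in m7G-RIP, an odds ratio of 6.10 with a 95% counting interval of 1.29 to 31.0. Without m7G-RIP replicate 2 or 3 the odds ratio was 3.79 or 3.70. The mean difference of the log2 ratio was 3.26 with a standard error of 1.32, the least certain of the 3 hairpins, and it was 4.57 without m7G-RIP replicate 1, the only m7G-RIP library with counts of miR-3679-3p. The direction of these differences follows from the choice of the high arm and is no finding.

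**Figure D3:**
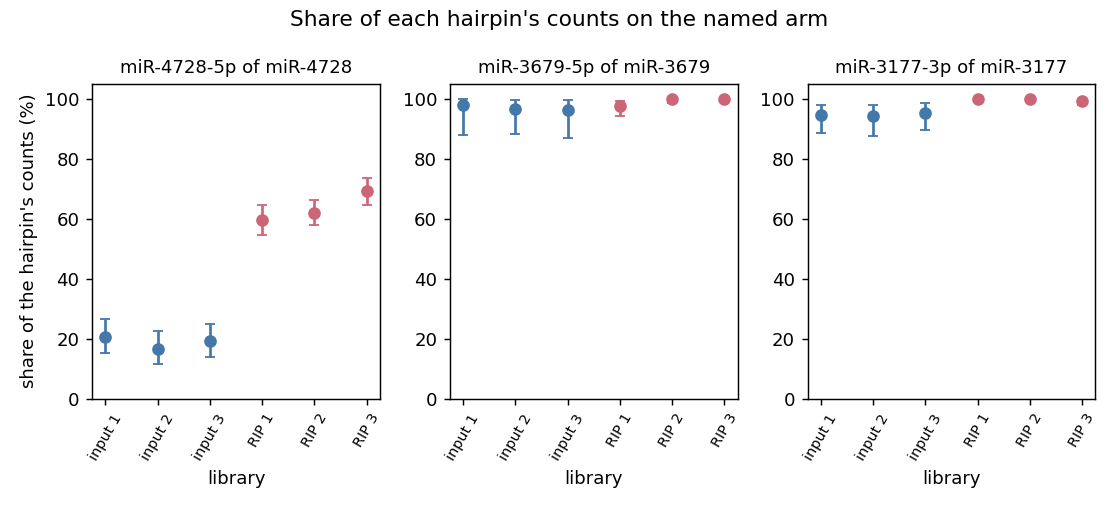
Share of each hairpin's counts (%) on miR-4728-5p, miR-3679-5p and miR-3177-3p in each library, with exact 95% binomial intervals (blue, input; red, m7G-RIP). miR-4728-5p goes from 16.6 to 20.4% in the input to 59.6 to 69.2% in m7G-RIP, while the other arms are above 94% in every library.

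Unequal arms in m7G-RIP were common and not particular to these hairpins. Of the 194 hairpins with both arms tested, 147 (75.8%) had log2 arm ratios that did not overlap between m7G-RIP and input. The median size of the arm difference was 2.14, the upper quartile began at 3.32 and the highest value was 8.23. miR-4728, at 2.92, was at rank 68 of 194 by size. miR-3679 and miR-3177 were not ranked, since 1 arm of each did not pass the filter. In 127 of the 194 hairpins the 5p arm was the arm with the higher enrichment, as in miR-4728 and miR-3679, and miR-3177 with its higher 3p arm belongs to the less frequent direction.

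The guanosine content of the high arms was set beside that of the other tested miRNAs. The choice of the hairpins did not use it directly. Across miRNAs it was correlated with the log2 enrichment on which they were chosen (below), so the comparison is not independent of that choice. Sequences were found for 714 of the 800. Their median guanosine share was 27.3%, and 56 had a share above the 52.2% of miR-4728-5p and miR-3679-5p, 189 one above the 38.1% of miR-3177-3p and 593 one above the 16% of miR-4728-3p. The motif GGGG, searched for in the mature strand only and chosen after the sequences were seen, was present in 3 of 3 high arms and in 0 of 3 partners. It was present in 109 (15.3%) of the tested miRNAs and in 278 (11.7%) of the 2370 mature miRNAs of the sequence table. The 109 tested miRNAs with GGGG had a median log2 enrichment of 2.84, against -0.37 for the 605 without it, and their medians of input abundance were 1.67 and 8.19 CPM. A miRNA low in the input could pass the filter through its m7G-RIP counts alone, and the part of input abundance in this contrast was not tested. The log2 enrichment of the miRNAs with this motif ranged from -4.08 to 4.87.

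Across these 714 miRNAs the guanosine share and the log2 enrichment had a Pearson correlation of 0.498 and a Spearman correlation of 0.497. This is a description across miRNAs, which share the libraries and their depth and are not replicates. The G-score, which weights runs of G positively and runs of C negatively over a window of 20 bases, was 1.60 for miR-3679-5p, 1.5 for miR-4728-5p and 0.80 for miR-3177-3p, against a median of 0.20. The partners scored -1.25 for miR-3679-3p, -1.0 for miR-4728-3p and 0.05 for miR-3177-5p. Thus in each hairpin the high arm had the higher G-score. Only 25 tested miRNAs scored above miR-4728-5p and 20 above miR-3679-5p, whereas 153 scored above miR-3177-3p.

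**Figure D4:**
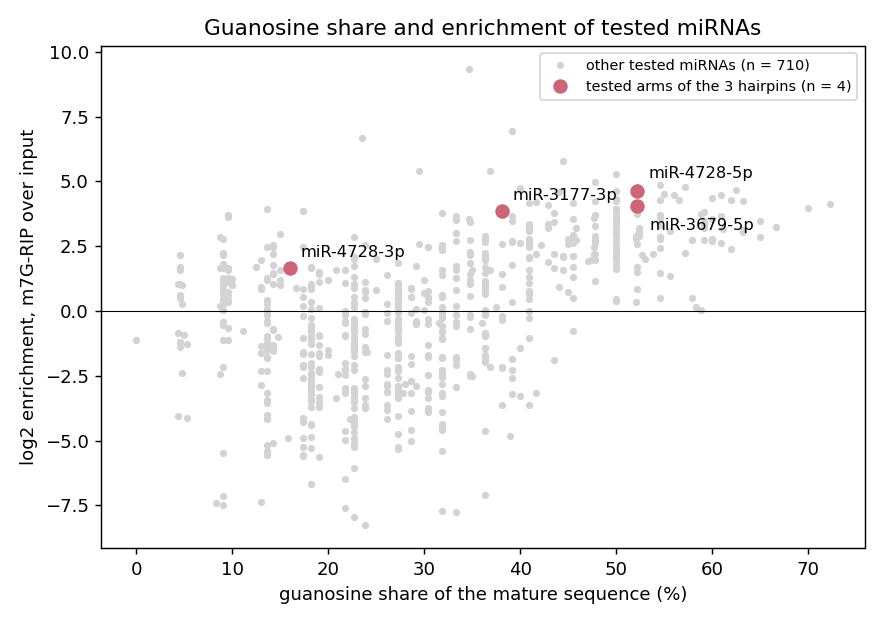
Log2 enrichment of m7G-RIP over input against the guanosine share (%) of the mature sequence for 714 tested miRNAs (grey) and the 4 fitted arms among them (red). miR-4728-5p and miR-3679-5p share a guanosine share of 52.2% and lie at 4.63 and 4.05, while miR-4728-3p lies at 16% and 1.66.

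The same comparison was made within hairpins, whose arms share a precursor. For 169 hairpins with both arms tested and both sequences found, the difference between the arms in guanosine share and the difference in log2 enrichment had a Pearson correlation of 0.582 and a Spearman correlation of 0.581. The G-richer arm had the higher enrichment in 119 of the 162 hairpins whose arms differ in guanosine share (73.5%). In miR-4728 the arms differed by 36.2 percentage points in guanosine share, and 35 hairpins differed by more. In miR-3177 the arms differed little in composition (38.1% and 30.4%), and its arm difference of 4.82 (standard error 0.99) rests on 3 counts of miR-3177-5p in m7G-RIP.

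**Figure D5:**
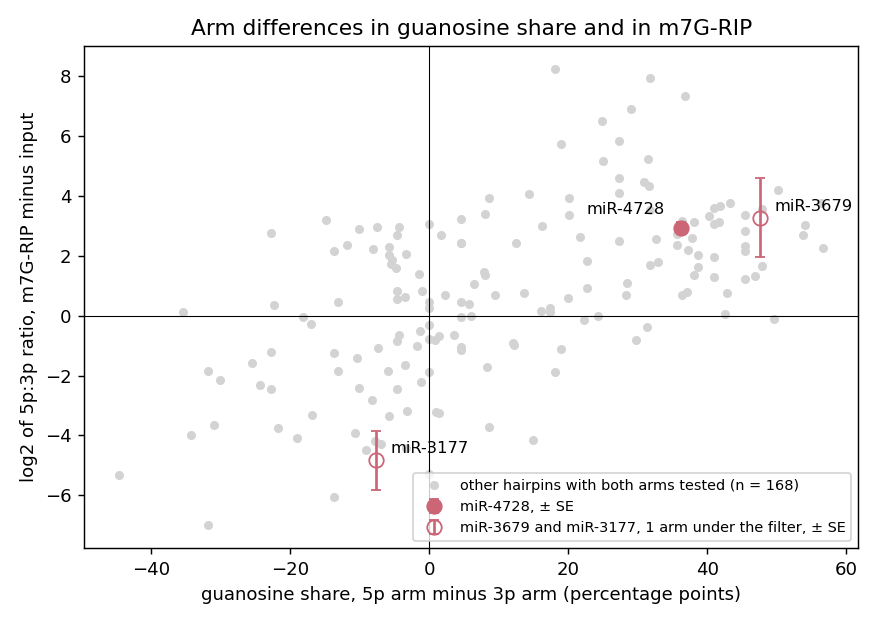
Change of the log2 ratio of 5p to 3p counts (m7G-RIP minus input) against the difference in guanosine share (5p minus 3p, percentage points), for hairpins with both arms tested (grey) and the 3 hairpins described (red, with standard errors, open where 1 arm did not pass the filter). miR-4728 and miR-3679 lie to the upper right at 2.92 and 3.26, and miR-3177 lies to the lower left, where the 3p arm is the G-richer and the more enriched.

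The hairpin sequences were also searched for 4 runs of at least 2 G with linkers of 1 to 7 bases, a loose form of the G-quadruplex motif. This pattern was present in MIR3679 and MIR3177 and absent from MIR4728, and 456 (29.2%) of 1560 hairpins in the table held it. With runs of at least 3 G it was present in 0 of the 3 hairpins and in 37 (2.37%) of all. In MIR3679 the matched stretch, GGUGAGGAUAUGGCAGGGAAGGGG, ran from base 4 to base 27 of the hairpin and lay almost wholly within miR-3679-5p, which covers bases 6 to 28. In MIR3177 the stretch GGCACUGGGGACACGUGGCACUGG ran from base 59 to base 82 and began within miR-3177-3p, which covers bases 54 to 74. In both hairpins the match therefore overlapped the high arm. The predicted minimum free energy of the hairpins was -30.0 kcal/mol for MIR4728, -33.9 for MIR3679 and -44.9 for MIR3177, or -0.448, -0.499 and -0.548 per base against a median of -0.452.

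The position of MIR4728 directly before an exon was shared by 186 (11.9%) of the 1560 hairpins, counted over protein-coding genes of the same strand. Of the 5p arms of these hairpins 67 were tested, with a median log2 enrichment of 3.31 and a range of -1.88 to 5.28, and 60 were called enriched. Of their 3p arms 64 were tested, with a median of 1.19 and a range of -7.75 to 3.85, and 31 were called enriched. The median guanosine share was 50.0% for these 5p arms and 13.3% for these 3p arms. Position and guanosine share were not separated, and the part of either was not tested. Of all miRNAs tested 40.1% were called enriched, beside 60 of these 67 5p arms and 31 of these 64 3p arms. An arm low in the input could pass the filter through its m7G-RIP counts alone, and the part of this in these counts was not tested. The arms of miR-4728 had values of 4.63 and 1.66, and since miR-4728-5p was chosen for its enrichment nothing is read from their place among these hairpins.

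Seeds were compared only among the 2370 mature miRNAs of the sequence table, which held 714 of the 800 tested. Listed miRNAs without a sequence were not searched, so others with the same seed may be missing. Within this search the seed of miR-4728-5p, GGGAGGG, is shared with miR-149-3p and miR-6785-5p. miR-149-3p rose from 1.09 to 21.7 CPM, a log2 enrichment of 4.29 (standard error 0.39), and miR-6785-5p from 0.498 to 5.63 CPM, with 3.44 (standard error 0.54). The seed of miR-3679-5p is shared with miR-1185-5p, which had 0 counts in all 6 libraries. For the other arms no further miRNA with a sequence found shared the seed.

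By the Euclidean distance between log2 CPM profiles over the 6 libraries, each centred on its own mean, the miRNA most like miR-4728-5p was miR-877-5p, with a distance of 0.237 and a log2 enrichment of 4.53, followed by miR-6734-5p (0.485) and miR-6800-5p (0.548). The median distance to all tested miRNAs was 5.45. This distance takes in the step from input to m7G-RIP on which the high arms were chosen. Profiles near a high arm therefore tend to have a similar log2 enrichment, and nothing is read from the likeness. Closest to miR-3679-5p were miR-7111-5p (0.390), miR-4466 (0.438) and miR-1275 (0.455), and closest to miR-3177-3p were miR-5010-5p (0.376), miR-149-3p (0.390) and miR-1275 (0.393). Closest to miR-4728-3p were miR-1229-3p (0.155), miR-483-3p (0.177) and miR-155-5p (0.248). These miRNAs covered a wide range of abundance, with miR-877-5p at 160 CPM and miR-1275 at 81.9 CPM in the input, above the input levels of all 3 high arms.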

How the data were processed

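Small RNA libraries (NEBNext) from 3 input and 3 m7G-RIP samples of Caco-2 cells were analysed. The deposited file holds raw counts of reads for each mature miRNA, made by the authors by trimming with Trimmomatic, mapping to GRCh38 and counting with featureCounts on miRBase. The methods name STAR as the mapper, whereas the submitters' processing notes name Bowtie2, and versions are not given in the sources used here. How reads with several loci were counted is not settled by the values. Multiples of the number of loci made up 76.1% of 314 counts above 0 for miRNAs with 2 loci (50.0% by chance), 68.4% of 57 with 3 loci (33.3%) and 96.0% of 25 with 4 loci (25.0%). The 6 members have 1 locus each.

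Counts were filtered with filterByExpr (minimum count 10, minimum total 15), scaled with TMM and fitted with edgeR 4.0.16 (R 4.3.3) by the quasi-likelihood test with Benjamini-Hochberg adjustment at 0.05, m7G-RIP against input, without the replicate number. The standard error of a log2 enrichment is its size divided by the square root of F. The arm difference is the mean over m7G-RIP libraries of log2((high arm + 0.5)/(other arm + 0.5)) minus that over input libraries, with a standard error from the SDs of both groups. Depth (total counts) was 16466178 to 19628046 for input and 1654102 to 3105129 for m7G-RIP, which limits the precision for arms with few counts. Fits were tested on simulated data. Alternatives were other scalings, filters and added counts, DESeq2 1.42.0, a replicate block and leaving out each library.

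Sequences are from RefSeq (GRCh38.p14) and annotation from GENCODE release 44, and hairpins were folded with RNAfold 2.7.2. Python 3.11.15 with scipy 1.17.1 was used for intervals. The members and lists were chosen with earlier results of these data known. Named miRNAs are the 6 members, those found with the same seed, the 3 nearest profiles of each tested arm, and the neighbours in rank of each high arm.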

Additional observations from a re-analysis of the deposited data

How the results depend on the processing

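The log2 enrichment of the 4 fitted arms stayed positive under every alternative run (0 reversed), but its size depends on the scaling, which moves all miRNAs together. With total counts it was 5.76 for miR-4728-5p, 2.77 for miR-4728-3p, 5.20 for miR-3679-5p and 4.99 for miR-3177-3p, and with upper-quartile factors 5.44, 2.47, 4.85 and 4.68, where the median of all tested miRNAs moved by 1.09 and 0.82. For miR-4728-3p it was 1.32 with DESeq2's size factors, 1.32 with DESeq2's Wald test and 1.35 without a filter. With each library left out in turn it was 4.25 to 4.82 for miR-4728-5p, 1.45 to 1.78 for miR-4728-3p, 3.54 to 4.29 for miR-3679-5p and 3.59 to 3.99 for miR-3177-3p. Same-numbered libraries did not deviate together (correlations of -0.0296, -0.0394 and 0.0714), so their numbers were not taken as pairs. A fit with a replicate block gave 4.59, 1.65, 3.96 and 3.85, and 296 miRNAs were enriched and 295 depleted.

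Over the alternatives run, the arm difference ranged from 2.75 to 3.05 for miR-4728, 2.54 to 4.57 for miR-3679 and 3.62 to 6.13 for miR-3177; the replicate block leaves its value as it is, with standard errors of 0.22, 1.45 and 1.08. With at least 10 counts in every library in both arms miR-4728 was at rank 29 of 92 hairpins. Of all miRNAs tested, 321 were enriched and 305 depleted, against 182 and 175 with at least 10 counts in every library, where 426 were tested, and 442 and 198 with total counts. The enriched share of the calls was 51.3% with TMM, 69.1% with total counts, and 64.8% after upper-quartile scaling, but 45.1% for the size factors of DESeq2. The correlation of guanosine share with log2 enrichment lay between 0.420 and 0.508, and that within hairpins, chosen after the data were seen, between 0.547 and 0.591. The ratio of m7G-RIP to input of miR-3679-3p and miR-3177-5p, also computed after the data were seen, was 5.38 and 1.19 with total counts, against 2.55 and 0.563 with TMM. No ratio could be given for miR-3177-5p without m7G-RIP replicate 3, or for miR-3679-3p without m7G-RIP replicate 1, since 0 counts remained. Depth limits what can be said of these arms.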

Other observations

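A group of C-rich miRNAs with few guanosines, of which miR-4728-3p is a member, had a higher median log2 enrichment than the tested miRNAs with a guanosine share of at most 16%. No value expected from guanosine share was computed. It was defined, after the data were seen, as tested miRNAs with a run of at least 4 C and no 2 adjacent G. The 36 miRNAs of this kind had a median guanosine share of 9.52% and a median log2 enrichment of 1.20, with values from -4.05 to 3.70, and 20 of them (55.6%) were called enriched and 4 depleted, against 40.1% enriched and 38.1% depleted of all 800 miRNAs tested. Among all 121 tested miRNAs with a guanosine share of at most 16% the median was 0.26, with 41 enriched and 39 depleted. This set overlaps the C-rich group, which was defined without a limit on guanosine share, and miR-4728-3p is in both. The medians are therefore not from separate miRNAs. In the set of 121, 21 miRNAs had a higher log2 enrichment than miR-4728-3p, and 12 of the 36 C-rich ones did. At the other end, of 65 tested miRNAs with a guanosine share of at least 52.2%, 60 (92.3%) were called enriched, and 57 had a higher log2 enrichment than miR-4728-3p. A miRNA low in the input could pass the filter through its m7G-RIP counts alone, and the part of this in these shares was not tested.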
